A study of Homo sapiens with 6 samples.

Results

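A pair of short hairpin RNAs against the same gene, PRMT5, was compared directly: the 2 arrays of VCaP cells with PRMT5 shRNA 2 were set against the 2 arrays with PRMT5 shRNA 1, over all genes tested. The members are these 4 arrays of the 6 in the series, chosen by the sample titles and by no measured value. The other 2 arrays carried a non-targeting control hairpin (NTC shRNA) and give the level from which each hairpin moved a gene. VCaP cells come from a human prostate cancer and are an established line with an active androgen receptor and a TMPRSS2-ERG fusion. Every group, the control included, had 100 ng/ml doxycycline for 3 days, the drug that switches on an inducible hairpin, so no uninduced cells enter the comparison. Each hairpin defines 1 group. The labels do not say whether the cells were clones or pools, or whether replicates were separate cultures, so every p-value reflects the spread among these arrays alone, and that spread may be technical.

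PRMT5 is the main enzyme that places symmetric dimethyl marks on arginines. It works with WDR77 in the methylosome, which modifies the Sm proteins of the splicing machinery, and it also modifies histones and other nuclear proteins. Hairpins against 1 messenger RNA share their intended target but can remove it to different depths, and each has its own seed, by which it can act on other transcripts. In this series the depth of knockdown and the identity of the hairpin changed together, so they cannot be told apart. Genes were therefore described by where the shRNA 2 arrays lay relative to both the shRNA 1 and the NTC arrays.

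PRMT5, the target that the sample titles name for both hairpins, was reduced by both and less by shRNA 2. Its brightest probe set read 809.8 and 881 with NTC, 136 and 134 with shRNA 1 and 291 and 321 with shRNA 2. The groups did not overlap, and shRNA 2 left 36.2% of the control intensity where shRNA 1 left 15.9%. Differences below are shRNA 2 minus shRNA 1 on the log2(intensity + 16) scale, with the standard error of limma's fit, and a gene was called at a Benjamini-Hochberg adjusted p under 0.05. PRMT5 itself differed by 1.09 ± 0.08 (adjusted p = 8.0e-05), with the other probe sets at 1.03 ± 0.08 and 0.98 ± 0.08. Measured from NTC, PRMT5 stood at -2.51 ± 0.08 with shRNA 1 and -1.42 ± 0.08 with shRNA 2, so the loss with shRNA 2 was 56.5% of the loss with shRNA 1 on this scale.

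**Figure D1:**
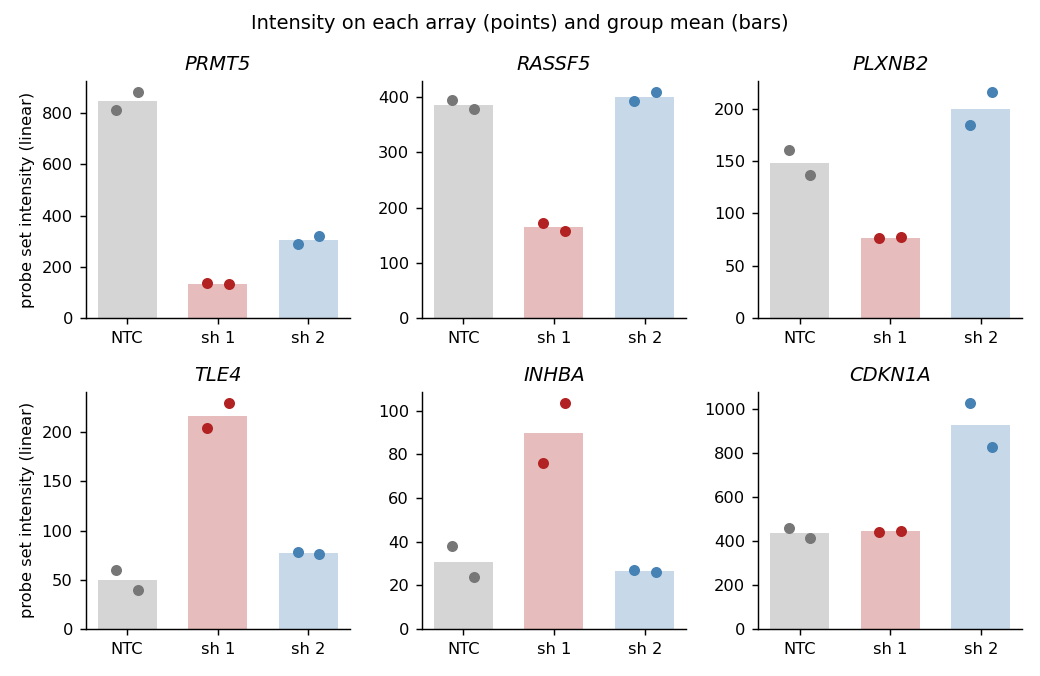
Probe set intensity on a linear scale (vertical axis, from 0) on each of the 6 arrays for PRMT5 and 5 genes that differed between the hairpins; points are arrays and bars are means of 2 arrays (NTC, control hairpin; sh 1 and sh 2, PRMT5 shRNA 1 and 2). PRMT5 and TLE4 lay between NTC and shRNA 1 with shRNA 2, RASSF5 and INHBA lay near NTC with shRNA 2, PLXNB2 lay above NTC with shRNA 2, and CDKN1A was high with shRNA 2 alone.

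Over the tested genes, which are not independent of each other, arrays of one hairpin correlated at 0.997 (shRNA 1) and 0.996 (shRNA 2), and arrays of different hairpins at 0.989 to 0.991. Against NTC the correlations were 0.976 to 0.977 with shRNA 1 and 0.981 to 0.983 with shRNA 2. The deposited intensities had been scaled to a common trimmed mean, with array medians of 14.8 to 16.4. The 3' over 5' ratio of the ACTB control probe sets, a measure of RNA quality and amplification, was 3.49 and 3.88 with shRNA 1 and 5.72 and 5.0 with shRNA 2, with 4.58 and 4.88 with NTC. It therefore moved with the comparison, and its part in the differences below was not tested. The same ratio for GAPDH was 1.22 on average with either hairpin.

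Of 12413 genes tested, 3192 were called between the hairpins, which is 25.7%. With shRNA 2, 2276 were higher (18.3%) and 916 lower (7.38%). Most differences were small: the median size was 0.37 on the log2 scale among called genes, and 18 genes differed by at least 2-fold (0.145%), 10 higher and 8 lower. The arrays of the hairpins did not overlap for 63.5% of all genes tested, so a lack of overlap alone says little about a gene. The lean toward higher calls depended on scaling. Over all genes the median difference was 0.06, and after each array was centred on its own median 1173 genes were higher and 1785 lower, so 39.7% of calls were higher in place of 71.3%. Averaging all probe sets of a gene gave 60.9%. The called genes named below kept their direction under centring, quantile and cyclic loess normalization. The balance of higher and lower calls is not fixed by these arrays. The count also rested on single arrays: 1333 genes were called without shRNA 1 replicate 2, 1726 without shRNA 1 replicate 1 and 2017 without shRNA 2 replicate 2.

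The lean also varied with intensity. With genes split into 4 equal bins by mean intensity, the dimmest bin had 367 higher and 119 lower with shRNA 2, and the next bin 798 and 197. The third bin had 751 and 296, and the brightest bin 360 and 304, with a median difference of -0.02. The lean toward shRNA 2 was therefore least among the brightest genes. Called differences of at least 0.5 numbered 493 higher and 175 lower, and those of at least 0.75 numbered 69 and 29.

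**Figure D2:**
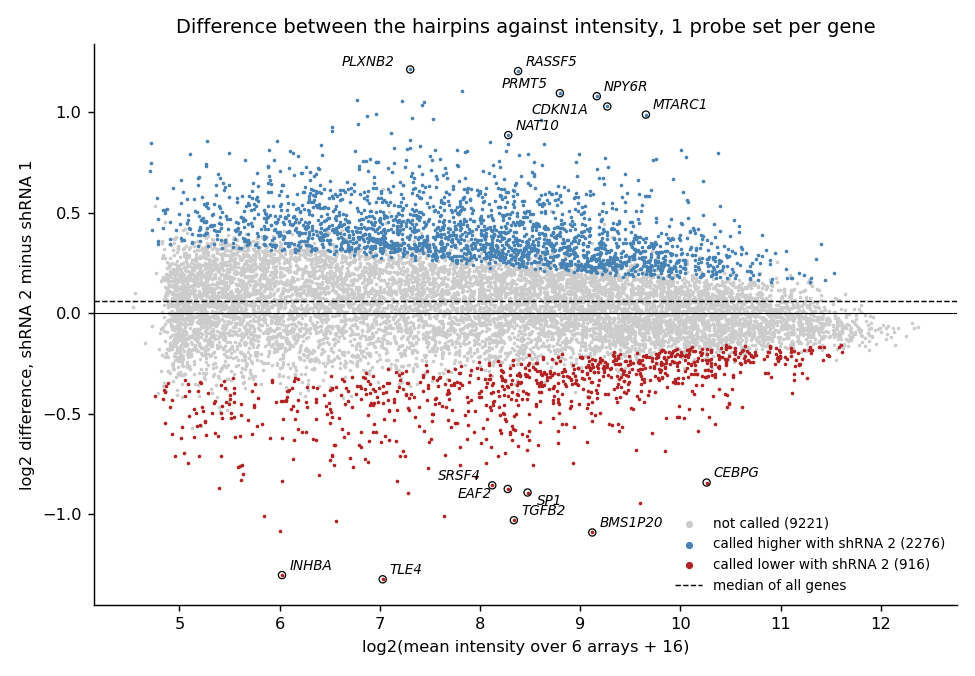
Log2 difference between shRNA 2 and shRNA 1 (vertical axis) against log2 of the mean intensity over 6 arrays plus 16 (horizontal axis), 1 point per gene; blue genes were called higher with shRNA 2 (2276), red genes lower (916), grey genes were not called, and circled genes are named. The dashed line is the median of all genes, 0.06, and the largest differences lie beyond 1 in either direction, with RASSF5 and PLXNB2 at the top and TLE4 and INHBA at the bottom.

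The classes below sort genes by calls and do not separate partial responses from responses of 1 hairpin. A gene not called with a hairpin may still have moved part of the way with it. Each called gene was placed by its own tests against NTC, 1 for each hairpin. Both of those tests use the same NTC arrays, so their values are given side by side and no likeness between them is read. Over all genes 39.3% were called against NTC with shRNA 1 and 21.4% with shRNA 2. Of the 3192 genes, 327 (10.2%) were graded, meaning called against NTC in one direction with both hairpins and less far with shRNA 2, the order PRMT5 itself followed. Another 113 (3.54%) moved farther with shRNA 2. The largest group, 1680 (52.6%), was called against NTC with shRNA 1 alone, and 423 (13.3%) with shRNA 2 alone. In 33 genes (1.03%) the hairpins were called in opposite directions, and 616 (19.3%) were called against NTC with neither. Over all genes tested, 8.77% met the graded definition and 5.68% moved farther with shRNA 2. Calls with shRNA 1 alone took 24.6%, shRNA 2 alone 6.73%, opposite directions 0.266% and neither 54.0%. The graded share of called genes was thus near that of all genes, and the share farther with shRNA 2 was below it.

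By group means, shRNA 2 lay between NTC and shRNA 1 for 1262 called genes (39.5%), NTC lay between the hairpins for 1563 (49.0%), and shRNA 1 lay between NTC and shRNA 2 for 362 (11.3%). Over all genes tested these shares were 43.7%, 29.4% and 26.7%. Choosing genes that differ between the hairpins favours those with the hairpins at the outer positions, so the shares are descriptions. The graded genes were 195 higher and 132 lower with shRNA 2, and the genes called with shRNA 1 alone 1244 and 436. In each case more genes were higher with shRNA 2, under the scaling as deposited.

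**Figure D3:**
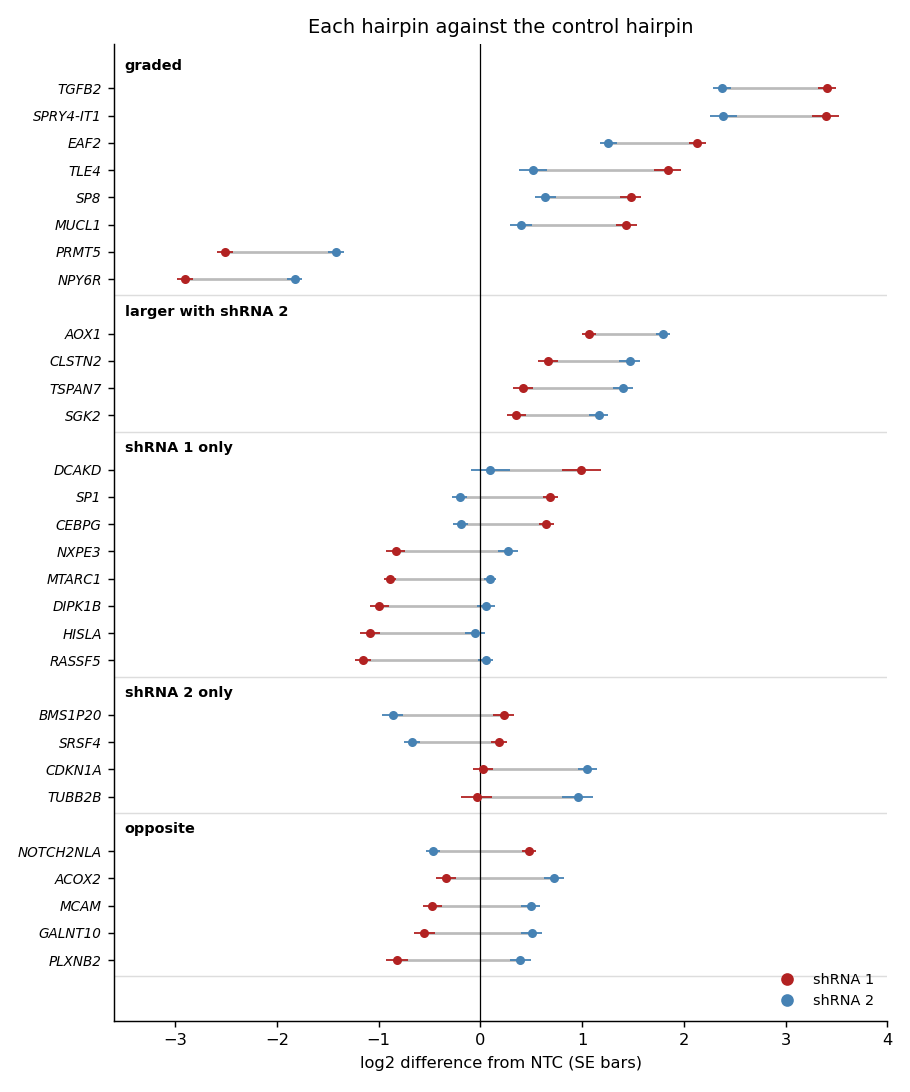
Log2 difference from NTC (horizontal axis, log2 of intensity + 16) of shRNA 1 (red) and shRNA 2 (blue) for the named genes with the largest differences between the hairpins, grouped by class; bars are standard errors of the fit and a grey line joins the hairpins. For graded genes both points lie on one side of 0 with blue nearer to it, for genes called with 1 hairpin alone the other point lies nearer to 0, and in the lowest block the points lie on either side of 0.

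Among graded genes are several that both hairpins moved far from NTC. TGFB2, a secreted ligand that signals through SMAD proteins, read 44.9 and 39.0 with NTC, 607 and 586 with shRNA 1 and 271 and 297 with shRNA 2. No group overlapped another, and the shRNA 2 arrays stood at less than the shRNA 1 arrays but far above the control. The difference was -1.03 ± 0.09 (adjusted p = 1.5e-04), with all 4 probe sets called and lower with shRNA 2. From NTC it rose by 3.40 with shRNA 1 and 2.37 with shRNA 2, so the response with shRNA 2 was 69.7% of that with shRNA 1. SPRY4-IT1, a non-coding transcript that lies within SPRY4, read 22.5 and 16.7 with NTC, 318 and 401 with shRNA 1 and 185 and 156 with shRNA 2. Its difference was -1.01 ± 0.13 (adjusted p = 9.2e-04), and its signal may not be separable from that of the host gene. SPRY4, which restrains receptor tyrosine kinase signalling, differed in the same direction by -0.59 ± 0.10 (adjusted p = 0.0033), from 403 and 389.9 with shRNA 1 to 286 and 232 with shRNA 2 and 31.7 and 33.7 with NTC.

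TLE4, a corepressor of the Groucho family that TCF/LEF and other factors recruit, had the lowest value of all genes tested. It read 60.1 and 39.5 with NTC, 204 and 229.7 with shRNA 1 and 77.8 and 75.9 with shRNA 2, a difference of -1.32 ± 0.14 (adjusted p = 3.1e-04). The shRNA 1 arrays were high and the shRNA 2 arrays lay just above the controls. From NTC it rose by 1.84 ± 0.14 with shRNA 1 and by 0.51 ± 0.14 with shRNA 2 (adjusted p = 0.021), so the response with shRNA 2 was 28.0% of that with shRNA 1. MUCL1, a small secreted mucin-like protein, had a share of 27.7% and differed by -1.04 ± 0.10 (adjusted p = 2.5e-04). It read 39.2 and 41.3 with NTC, 139.6 and 133 with shRNA 1 and 63.1 and 53.4 with shRNA 2, in 3 separate ranges. SP8, a zinc finger factor of embryonic outgrowth, had a share of 43.3%, with 63.5 and 66.6 with NTC, 226 and 194 with shRNA 1 and 114 and 106 with shRNA 2 and a difference of -0.84 ± 0.10 (adjusted p = 7.0e-04). Shares of these graded genes thus lay on either side of the 56.5% seen for PRMT5.

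EAF2, an elongation factor partner that androgen induces in prostate, read 97.5 and 109.7 with NTC, 491 and 526 with shRNA 1 and 279.8 and 259.9 with shRNA 2. All 3 groups were apart, the difference was -0.88 ± 0.09 (adjusted p = 2.5e-04), and the shRNA 2 response was 59.0% of that with shRNA 1. NPY6R, a receptor gene of the neuropeptide Y family that is a pseudogene in humans, fell with both hairpins, from 1181 and 1220.3 to 154 and 139 with shRNA 1 and 319 and 335 with shRNA 2. It was higher with shRNA 2 by 1.08 ± 0.07 (adjusted p = 8.0e-05), or 0.40 ± 0.10 on its dimmer probe set, and since it has related family members its probe sets may not be specific. CXCL11, an interferon-induced chemokine, fell from 916 and 889.8 with NTC to 84.7 and 82.2 with shRNA 1 and 170.1 and 155 with shRNA 2, and differed by 0.84 ± 0.08 (adjusted p = 2.3e-04). Its other probe set also fell with both hairpins, from 477 and 498 with NTC to 57.4 and 43.9 with shRNA 1 and 59.0 and 72.6 with shRNA 2. There the hairpins differed by 0.30 ± 0.12, which was not called (adjusted p = 0.088). Genes that fell with both hairpins, like genes that rose, included members of the graded class, which by its definition has shRNA 2 nearer to the control.

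A smaller set moved farther with the hairpin that removed less PRMT5. TSPAN7, a tetraspanin of the cell surface, read 58.1 and 51.5 with NTC, 80.2 and 77.0 with shRNA 1 and 166 and 175 with shRNA 2. The shRNA 2 arrays were the highest and no groups overlapped. It rose by 0.42 with shRNA 1 and 1.40 with shRNA 2, and the hairpins differed by 0.98 ± 0.10 (adjusted p = 2.5e-04). SGK2, a kinase related to AKT, differed by 0.81 ± 0.10 (adjusted p = 6.4e-04) and read 122 and 137 with NTC, 169.6 and 169 with shRNA 1 and 288 and 331 with shRNA 2. CLSTN2, a calsyntenin of neuronal membranes, differed by 0.80 ± 0.10 (adjusted p = 7.6e-04), and its shRNA 2 arrays at 149 and 152 stood over those of shRNA 1 at 85.6 and 73.6 and NTC at 45.0 and 43.6. AOX1, an aldehyde oxidase, was the brightest of these, at 272 and 263 with NTC, 583 and 575 with shRNA 1 and 944 and 993 with shRNA 2, and differed by 0.73 ± 0.07 (adjusted p = 1.7e-04). AMACR, a peroxisomal racemase used as a marker of prostate cancer, moved the other way. It fell from 454 and 469 to 172 and 157 with shRNA 1 and 99.7 and 98.7 with shRNA 2, a difference of -0.65 ± 0.08 (adjusted p = 8.9e-04), although 1 of its 3 probe sets differed by 0.08 ± 0.11.

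Genes called against NTC with shRNA 1 alone made up the largest class, and for each the difference between the hairpins was itself tested. RASSF5, a RAS-binding protein that partners the kinases STK4 and STK3, read 394 and 378 with NTC, 172 and 158 with shRNA 1 and 392 and 409 with shRNA 2. The shRNA 1 arrays were low, and those of shRNA 2 overlapped those of NTC. The difference was 1.20 ± 0.08 (adjusted p = 5.5e-05). The 95% interval of shRNA 2 against NTC was -0.12 to 0.22, and that of shRNA 1 was -1.32 to -0.98. Its dimmer probe set differed by 0.42 ± 0.10 in the same direction.

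INHBA, the subunit of activin A, was dim in the control (38.1 and 23.7), rose with shRNA 1 (75.9 and 104) and read 27.0 and 25.9 with shRNA 2. The shRNA 1 arrays stood apart, while those of shRNA 2 lay within the control range. The difference was -1.30 ± 0.16 (adjusted p = 7.3e-04), with an interval of -0.48 to 0.23 for shRNA 2 against NTC, so a change of up to that size in either direction lies within the error. It had 1 probe set above the filter.

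MTARC1, a molybdenum enzyme of the outer mitochondrial membrane, read 911 and 913 with NTC, 482 and 486 with shRNA 1 and 967 and 982 with shRNA 2, with a difference of 0.99 ± 0.06 (adjusted p = 4.8e-05). Its arrays were tightly grouped, and the interval of shRNA 2 against NTC was -0.03 to 0.22. DIPK1B, a protein of the secretory pathway with a kinase-like domain, differed by 1.05 ± 0.09 (adjusted p = 1.5e-04), with 199 and 178 with NTC, 88.9 and 84.5 with shRNA 1 and 199.7 and 193 with shRNA 2. HISLA, a long non-coding RNA linked to HIF1A stability, differed by 1.04 ± 0.10 (adjusted p = 2.3e-04) and read 208 and 181 with NTC, 80.2 and 85.6 with shRNA 1 and 176 and 198 with shRNA 2. In these 3 genes the shRNA 1 arrays were all far below the other groups. NAT10, an acetyltransferase of ribosomal and messenger RNA, followed the same pattern with 348 and 360.2 with NTC, 190.1 and 174 with shRNA 1 and 362 and 337 with shRNA 2 and a difference of 0.89 ± 0.08 (adjusted p = 1.7e-04).

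NXPE3, a member of the neurexophilin-like family, had one of the largest differences, 1.10 ± 0.09 (adjusted p = 1.5e-04), but its probe sets did not move together. The brightest read 124 and 119 with shRNA 1 and 302 and 259 with shRNA 2. A dimmer one differed by -0.49 ± 0.15, the other way, and averaging the 4 probe sets gave 0.19 (adjusted p = 0.08). The gene-level difference therefore rests on the choice of probe set.

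Transcription factors were found among the genes that rose with shRNA 1 and were called against NTC with that hairpin alone. SP1, a broadly expressed zinc finger activator, read 286 and 295 with NTC, 485 and 471 with shRNA 1 and 251 and 249 with shRNA 2. The shRNA 1 arrays were high and those of shRNA 2 lay below the control, with an interval of -0.36 to -0.05 from NTC. The hairpins differed by -0.89 ± 0.07 (adjusted p = 1.3e-04), and all 4 probe sets were lower with shRNA 2. CEBPG, a leucine zipper factor that pairs with C/EBP proteins and ATF4, differed by -0.84 ± 0.07 (adjusted p = 1.5e-04). It was among the brighter genes, with 1059.6 and 1045 with NTC, 1561 and 1765 with shRNA 1 and 868 and 970.0 with shRNA 2. The shRNA 1 arrays were above all others. Those of shRNA 2 lay below the control, with an interval of -0.36 to -0.03 from NTC, though this was not called (adjusted p = 0.086). DCAKD, a dephospho-CoA kinase domain protein, differed by -0.89 ± 0.19 (adjusted p = 0.0085) with wide spread, at 119.5 and 79.8 with NTC, 236 and 187 with shRNA 1 and 132 and 84.4 with shRNA 2. Its call was lost without shRNA 1 replicate 1 (-0.74, adjusted p = 0.061) and without shRNA 2 replicate 2 (-0.61, adjusted p = 0.061).

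Fewer genes were called against NTC with shRNA 2 alone than with shRNA 1 alone, and CDKN1A had the largest difference among those higher. CDKN1A, which encodes the p21 inhibitor of cyclin-dependent kinases, read 459.5 and 412 with NTC, 441 and 445 with shRNA 1 and 1025 and 825 with shRNA 2. The shRNA 1 arrays lay within the control range and both shRNA 2 arrays stood far above it. The difference was 1.03 ± 0.10 (adjusted p = 2.1e-04), a ratio of 2.09 between the mean intensities. Its interval against NTC was -0.19 to 0.24 with shRNA 1 and 0.84 to 1.26 with shRNA 2. Since shRNA 1 removed more PRMT5, this gene did not follow the order of knockdown. TUBB2B, a beta tubulin isotype of neurons, read 92.2 and 66.8 with NTC, 79.4 and 73.2 with shRNA 1 and 142 and 197 with shRNA 2, and differed by 0.99 ± 0.15 (adjusted p = 0.002). Tubulin genes are alike in sequence, so its probe set may read other members of the family.

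SRSF4, a serine and arginine rich splicing factor, fell with shRNA 2 alone on its brightest probe set. That probe set read 292 and 281 with NTC, 317 and 338 with shRNA 1 and 174 and 173 with shRNA 2, a difference of -0.86 ± 0.08 (adjusted p = 1.7e-04). The shRNA 2 arrays were below all others. Of its 5 probe sets, 4 were called lower with shRNA 2, with differences of -0.86, -0.98, -1.08 and -1.17. The remaining probe set went the other way by 0.24 ± 0.10 and was not called (adjusted p = 0.082 over 23920 probe sets), with 229.6 and 203 with shRNA 1 and 238 and 281 with shRNA 2. The fall was therefore seen on some of the transcript regions that these probe sets read, and which regions those are was not examined here.

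**Figure D4:**
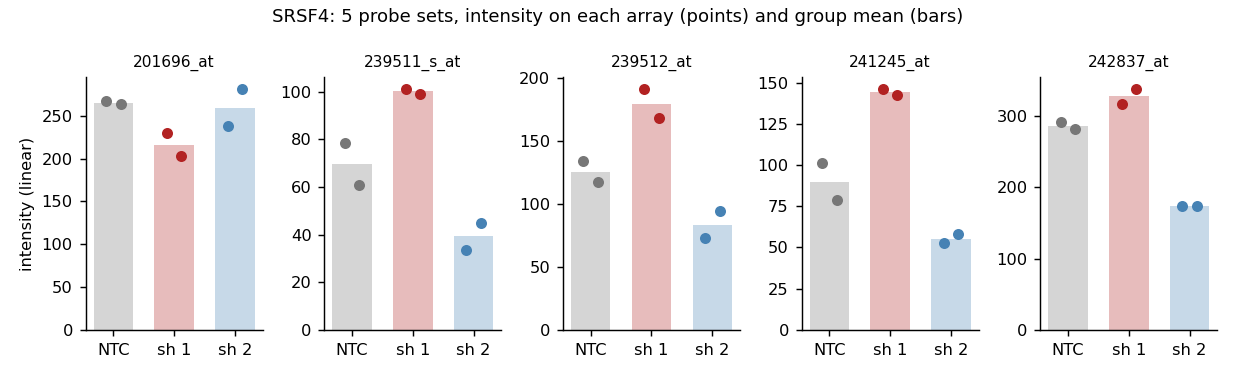
Intensity on a linear scale (vertical axes, each from 0) of the 5 SRSF4 probe sets on each array; points are arrays and bars are means of 2 arrays per group. In 4 panels shRNA 2 is the lowest group and shRNA 1 the highest, and in the leftmost panel shRNA 1 is the lowest and shRNA 2 lies near NTC.

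BMS1P20, a pseudogene related to the ribosome assembly gene BMS1, was lower with shRNA 2, at -1.09 ± 0.10 (adjusted p = 2.1e-04), from 629 and 779.6 with shRNA 1 to 345 and 297 with shRNA 2, and 609 and 582 with NTC. Its other probe set differed by -0.04 ± 0.07, and related sequences elsewhere may share signal, so the call is uncertain. MED28, a Mediator subunit, was lower with shRNA 2, at -0.52 ± 0.06 (adjusted p = 5.3e-04), with 1013 and 1008 with NTC, 1019 and 1017 with shRNA 1 and 722 and 686 with shRNA 2. Here 8 of its 9 probe sets differed in the same direction and 7 were called. CA12, a membrane carbonic anhydrase, was higher with shRNA 2 on all 6 probe sets, with 657 and 799 with NTC, 691 and 609.9 with shRNA 1 and 1089 and 1134 with shRNA 2 on the brightest and a difference of 0.76 ± 0.09 (adjusted p = 7.0e-04). For MED28 and CA12 most probe sets thus showed shRNA 2 apart from shRNA 1.

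In 33 genes both hairpins were called against NTC, in opposite directions. PLXNB2, a plexin receptor for class 4 semaphorins, had the highest value of all genes tested. It read 160.4 and 137 with NTC, 76.6 and 77.4 with shRNA 1 and 185 and 216 with shRNA 2, and the 3 groups did not overlap. The difference was 1.21 ± 0.11 (adjusted p = 1.5e-04), from -0.82 ± 0.11 with shRNA 1 and 0.39 ± 0.11 with shRNA 2 against NTC. Its other probe set was near the array median, and without probe sets marked as possibly shared between transcripts the difference was 0.31 (adjusted p = 0.19). MCAM, an adhesion molecule, differed by 0.97 ± 0.09 (adjusted p = 2.4e-04) with 156 and 167 with NTC, 116 and 108 with shRNA 1 and 251 and 219 with shRNA 2. It had the same limit, with 0.20 (adjusted p = 0.19) on the dimmer probe set.

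ACOX2, a peroxisomal oxidase of branched fatty acids and bile acid precursors, read 80.6 and 78.2 with NTC, 57.6 and 61.1 with shRNA 1 and 132 and 152 with shRNA 2, and differed by 1.06 ± 0.10 (adjusted p = 2.3e-04). The hairpins lay on either side of the control without overlap. GALNT10, of the transferase family that starts mucin-type O-glycans, showed the same order on its brighter probe set, with 128 and 129 with NTC, 74.5 and 91.0 with shRNA 1 and 189.8 and 187 with shRNA 2 and a difference of 1.05 ± 0.10 (adjusted p = 2.3e-04). Its dimmer probe set differed by 0.59 ± 0.12, but there shRNA 2 (37.6 and 33.8) lay level with NTC (37.0 and 33.9). Only shRNA 1 (15.3 and 21.8) stood apart from NTC on it. NOTCH2NLA, a partial duplicate of NOTCH2, had the reverse of the ACOX2 order with 755 and 699 with NTC, 978 and 1065 with shRNA 1 and 522 and 523 with shRNA 2, and a difference of -0.94 ± 0.07 (adjusted p = 8.0e-05). It is nearly identical to its relatives, so the signal cannot be given to 1 of them. BARD1, the partner of BRCA1 in DNA repair, also had this order, at 614 and 611 with NTC, 712 and 735 with shRNA 1 and 451 and 527 with shRNA 2, and differed by -0.55 ± 0.08 (adjusted p = 0.0013). A dimmer probe set gave -0.59 ± 0.10. Another gave -0.16 ± 0.08 and was not called (adjusted p = 0.16). There both hairpins read below NTC, at 259 and 256 with NTC, 237 and 219.5 with shRNA 1 and 199 and 206 with shRNA 2.

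Some genes differed between the hairpins while neither was called against NTC. SEMA4B, a class 4 semaphorin, read 72.3 and 62.7 with NTC, 60.7 and 52.9 with shRNA 1 and 80.4 and 120.3 with shRNA 2, and differed by 0.66 ± 0.15 (adjusted p = 0.011). Its call was lost without shRNA 1 replicate 2 (0.58, adjusted p = 0.076) and without shRNA 2 replicate 2 (0.41, adjusted p = 0.064). MYL12A, a myosin light chain, differed by 0.60 ± 0.12 (adjusted p = 0.007) on a bright probe set, while its 2 dim ones had the other sign. Averaged over its probe sets it was -0.07, and its call was lost without shRNA 1 replicate 2 (0.41, adjusted p = 0.06) or shRNA 2 replicate 2 (0.45, adjusted p = 0.052).

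Pathway members were then counted in lists whose members were drawn from general knowledge of each pathway. The lists were chosen with earlier results of these data known, and some hold genes named above, so their counts are descriptions. Each count stands beside 25.7% called over all genes, 18.3% higher and 7.38% lower. In the TGF-beta, activin and BMP list 4 of 34 members were higher with shRNA 2 and 10 lower, with a median of -0.07 beside 0.06 over all genes. Of the lower members, TGFB2, INHBA, TGFBR3, SMAD1, ID1, ID3, SKIL and LTBP1 were called above NTC with shRNA 1, while the inhibitory SMAD7 was below NTC with both hairpins and SMAD3 was called with neither. Beside the ligands INHBA and TGFB2, SMAD1, a receptor-activated transducer of BMP signals, read 303 and 309 with NTC, 581 and 568 with shRNA 1 and 402 and 402 with shRNA 2, a difference of -0.50 ± 0.07 (adjusted p = 0.0011), while its dimmer probe set gave 0.12 ± 0.09 and was not called. ID1, a target that inhibits helix-loop-helix factors, read 123 and 147 with NTC, 722 and 744 with shRNA 1 and 566 and 493 with shRNA 2, a difference of -0.46 ± 0.09 (adjusted p = 0.0061). Both kept the shRNA 2 arrays between the others. ID3, a relative of ID1, differed by -0.32 ± 0.08 (adjusted p = 0.015), a call lost without shRNA 1 replicate 2 (-0.28, adjusted p = 0.098) or shRNA 2 replicate 2 (-0.19, adjusted p = 0.074). Under each scaling, and with probe sets averaged, 1 to 4 members were higher and 10 to 15 lower.

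In the list of TLE corepressors and TCF/LEF genes 1 of 14 members was higher and 4 lower, with a median of 0.05. Beside TLE4, LEF1, a nuclear partner of beta-catenin, was lower with shRNA 2, at -0.32 ± 0.05 (adjusted p = 0.0019), from 2823 and 2869 with shRNA 1 to 2322 and 2223 with shRNA 2, the latter near NTC at 2232 and 2214. Its dimmer probe sets gave -0.74 ± 0.13 and -0.91 ± 0.11. AXIN2, a target and brake of WNT signalling, differed by -0.39 ± 0.11 (adjusted p = 0.027), and its call was lost without either shRNA 1 array (adjusted p = 0.11 and 0.10 without replicates 1 and 2) and without shRNA 2 replicate 2 (-0.22, adjusted p = 0.15), as well as with no filter on dim probe sets (adjusted p = 0.06). RNF43, a ligase that removes WNT receptors, was the higher member, at 0.37 ± 0.08 (adjusted p = 0.01), lost without shRNA 1 replicate 2 (0.34, adjusted p = 0.076).

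Semaphorins, plexins and neuropilins, guidance cues and their receptors, had 8 of 20 members higher with shRNA 2 and 5 lower, which is 65% called, with a median of 0.04. PLXNB3, a plexin near in kind to PLXNB2, read 100.4 and 98.8 with NTC, 66.3 and 62.1 with shRNA 1 and 105 and 113 with shRNA 2, a difference of 0.64 ± 0.10 (adjusted p = 0.0016). The shRNA 1 arrays were low, and those of shRNA 2 lay just above NTC. PLXNA1, a receptor of class 3 semaphorins, differed by 0.55 ± 0.10 (adjusted p = 0.0033), but its other probe set gave -0.26 (adjusted p = 0.14) and the mean of both 0.15 (adjusted p = 0.17). Under median centring the list had 5 higher and 7 lower, so its lean was not fixed.

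In the RASSF and Hippo list 3 of 25 were higher and 5 lower, with a median of 0.03. RASSF7, an N-terminal RASSF protein, was higher with shRNA 2 as RASSF5 was, by 0.60 ± 0.10 (adjusted p = 0.0029). STK4, the kinase that RASSF5 binds, was lower with shRNA 2, at -0.65 ± 0.10 (adjusted p = 0.0018), with 329 and 406 with NTC, 532 and 574 with shRNA 1 and 329 and 367 with shRNA 2. WWTR1, the coactivator TAZ, was lower, at -0.71 ± 0.11 (adjusted p = 0.0017), with 97.6 and 105 with NTC, 175 and 216 with shRNA 1 and 109.6 and 116 with shRNA 2. On these probe sets the shRNA 1 arrays were high for both genes. The intervals of shRNA 2 against NTC were -0.29 to 0.15 for STK4 and -0.10 to 0.37 for WWTR1. Another STK4 probe set gave -0.22 ± 0.09 and was not called (adjusted p = 0.097). On it the shRNA 1 arrays (381 and 358) overlapped those of NTC (347 and 375.5).

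Androgen-induced genes, the targets of the androgen receptor, had 2 of 26 members higher with shRNA 2 and 7 lower, with a median of -0.09, and the lean was kept under each scaling and with probe sets averaged. After EAF2, ADAMTS1, a secreted protease, was lower, at -0.76 ± 0.08 (adjusted p = 4.7e-04), with 212 and 215 with NTC, 542 and 526 with shRNA 1 and 287 and 334 with shRNA 2. PTGER4, a prostaglandin receptor, was lower, at -0.60 ± 0.08 (adjusted p = 0.001), with 121 and 112 with NTC, 442 and 438 with shRNA 1 and 293 and 278 with shRNA 2. Both were raised by both hairpins and less by shRNA 2. Androgen-repressed genes had 3 of 11 higher and 5 lower, with a median of -0.19. UGT2B28 and UGT2B15, which inactivate androgens by glucuronidation, fell with both hairpins and less with shRNA 2, by 0.68 ± 0.12 (adjusted p = 0.0037) and 0.65 ± 0.08 (adjusted p = 7.7e-04). UGT2B15 read 507 and 511 with NTC, 168 and 158 with shRNA 1 and 249.9 and 279 with shRNA 2, and the genes of this cluster are so alike that their probe sets may share signal. Without probe sets marked as possibly shared UGT2B15 was 0.17 (adjusted p = 0.59). OPRK1, the kappa opioid receptor, fell farther with shRNA 2, by -0.61 ± 0.11 (adjusted p = 0.0034), at 194 and 190.4 with NTC, 87.7 and 109 with shRNA 1 and 60.6 and 56.4 with shRNA 2.

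ERG, the oncogenic ETS factor that the fusion expresses in VCaP, was chosen after its values had been seen. It read 1367 and 1446 with NTC, 1005 and 1125 with shRNA 1 and 1424 and 1355 with shRNA 2, a difference of 0.38 ± 0.07 (adjusted p = 0.0034), with the shRNA 1 arrays below the rest. In a list of ERG or ETS targets that includes ERG itself, 9 of 19 were higher with shRNA 2 and 1 lower, with a median of 0.16, and 6 to 9 were higher and 1 lower under each scaling and with probe sets averaged. AMPD3, an AMP deaminase, read 244 and 257 with NTC, 134 and 127 with shRNA 1 and 218 and 239 with shRNA 2 and differed by 0.74 ± 0.09 (adjusted p = 6.0e-04). KCNS3, a potassium channel subunit, was higher by 0.51 ± 0.09 (adjusted p = 0.0034). In both the shRNA 1 arrays were low and shRNA 2 was near the control. TFF1, a secreted trefoil peptide, was the lower member, by -0.63 ± 0.11 (adjusted p = 0.0033), with 37.5 and 40.6 with NTC, 105 and 96.7 with shRNA 1 and 65.1 and 53.9 with shRNA 2.

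Partners of PRMT5 showed no common direction. Of 21 genes of the methylosome, Sm ring and SMN complex, 4 were higher with shRNA 2 and 2 lower (median -0.02), and under median centring 3 and 4. COPRS, which guides PRMT5 to histones, read 603 and 554 with NTC, 427 and 444 with shRNA 1 and 564 and 583 with shRNA 2, a difference of 0.38 ± 0.07 (adjusted p = 0.0038). GEMIN4, a SMN complex member, followed the same order with 529.7 and 542 with NTC, 359 and 327 with shRNA 1 and 463 and 528 with shRNA 2, and differed by 0.51 ± 0.08 (adjusted p = 0.0023). In both genes the shRNA 1 arrays were the lowest. Of 7 other arginine methyltransferases 1 was higher and 1 lower. PRMT1, which makes most asymmetric marks, was lower with shRNA 2, at -0.22 ± 0.06 (adjusted p = 0.019), and the call was lost without either shRNA 1 array (adjusted p = 0.062 and 0.12 without replicates 1 and 2) or shRNA 2 replicate 2 (adjusted p = 0.059), and with no intensity trend in the fit (adjusted p = 0.053).

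Of 40 splicing factors, 9 were higher with shRNA 2 and 4 lower, with a median of 0.04, and under median centring 3 and 9. Beside SRSF4, SF3A3, a U2 particle subunit, read 286 and 294 with NTC, 167 and 165 with shRNA 1 and 263 and 300.2 with shRNA 2, a difference of 0.71 ± 0.08 (adjusted p = 7.0e-04). RBM10, an exon-skipping regulator, was higher by 0.36 ± 0.07 (adjusted p = 0.0052). Both were low with shRNA 1 alone.

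The machinery that processes and uses small RNAs was also listed, since hairpins pass through it. Of 12 genes, 4 were higher with shRNA 2 and 2 lower, with a median of 0.12, and under median centring 2 and 3. AGO4, an Argonaute protein, rose with both hairpins and less with shRNA 2, at 277 and 315 with NTC, 616 and 629.8 with shRNA 1 and 417 and 423 with shRNA 2, a difference of -0.55 ± 0.08 (adjusted p = 0.0012). Its other probe sets gave -1.01 ± 0.10 and, not called, 0.14 ± 0.09 (adjusted p = 0.3). AGO1, its relative, was higher with shRNA 2 on its brightest probe set, at 435 and 395 with NTC, 412 and 421 with shRNA 1 and 590.2 and 546 with shRNA 2, by 0.43 ± 0.07 (adjusted p = 0.0031), but averaging its probe sets gave 0.12 (adjusted p = 0.21) and leaving out those marked as possibly shared 0.21 (adjusted p = 0.06). XPO5, which exports hairpin precursors, differed by 0.30 ± 0.07 (adjusted p = 0.011). DICER1, which cleaves them, was lower with shRNA 2 on all 5 probe sets, 4 of them called, and the brightest gave -0.25 ± 0.06 (adjusted p = 0.012). Dimmer ones gave larger differences, -1.01 ± 0.08 (adjusted p = 8.8e-05) and -0.95 ± 0.08 (adjusted p = 1.2e-04). The first of these read 198 and 197 with NTC, 369 and 367 with shRNA 1 and 180.3 and 169 with shRNA 2, so the shRNA 1 arrays were high. On the brightest probe sets both of these calls were lost without shRNA 1 replicate 1 (adjusted p = 0.058 and 0.086), and that of XPO5 was also lost without shRNA 1 replicate 2 (0.057) or shRNA 2 replicate 2 (0.058).

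Of 15 cell cycle inhibitors and G1 cyclins, 2 were higher with shRNA 2 and 1 lower, and under median centring 1 and 3. CDKN1A was one of the higher ones. CCNE1, cyclin E1 of the G1 to S step, was the other, at 0.39 ± 0.11 (adjusted p = 0.024), lost without shRNA 1 replicates 1 or 2 (adjusted p = 0.074 and 0.11), without shRNA 2 replicate 2 (0.15), under median centring (0.051) and with no filter on dim probe sets (0.052). Of 20 p53 targets 3 were higher and 1 lower, with a median of 0.02, but 2 and 4 under median centring and 3 and 3 with probe sets averaged. CDKN1A was one of them, and the other higher ones were graded falls. FAS, a death receptor, read 1173 and 1192 with NTC, 545 and 487 with shRNA 1 and 656 and 691 with shRNA 2, a difference of 0.38 ± 0.07 (adjusted p = 0.0042) seen on all 5 probe sets. GADD45A, a stress-induced growth arrest gene, differed by 0.28 ± 0.06 (adjusted p = 0.012), with its call lost without shRNA 1 replicate 1 (0.24, adjusted p = 0.08), without shRNA 2 replicate 2 (0.23, adjusted p = 0.057) and under median centring (0.18, adjusted p = 0.074).

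In DNA replication and G1/S genes 9 of 40 were higher with shRNA 2 and 3 lower (median 0.06), and in mitosis and G2/M genes 5 of 39 and 3 (median 0.03). Under median centring these counts became 3 and 6, and 1 and 5, so no lean is given. Of the 6 subunits of the replicative helicase, MCM2, MCM3 and MCM6 were called higher with shRNA 2, MCM4 lower, and MCM5 and MCM7 were not called. MCM4 was lower with shRNA 2, at -0.52 ± 0.07 (adjusted p = 0.0013), with 1067 and 1246 with NTC, 1531 and 1468 with shRNA 1 and 1029 and 1053 with shRNA 2, while MCM3 was higher by 0.46 ± 0.07 (adjusted p = 0.0024), with 655 and 659 with NTC, 452 and 444 with shRNA 1 and 582 and 667 with shRNA 2. On these probe sets only shRNA 1 was called against NTC. All 4 MCM4 probe sets were lower with shRNA 2, and 3 were called. On another of them the difference was -0.35 ± 0.08, but shRNA 1 (1343 and 1313) overlapped NTC (1316 and 1120). There shRNA 2 (981 and 1099) lay below both. DTL, a ligase adaptor of S phase, was higher by 0.35 ± 0.06 (adjusted p = 0.0043). Among mitotic genes AURKB, the kinase of the chromosomal passenger complex, was lower, at -0.40 ± 0.07 (adjusted p = 0.0044). CENPA, the centromeric histone, was lower, at -0.42 ± 0.09 (adjusted p = 0.0083; 0.055 without shRNA 1 replicate 1), and CENPE, a centromere motor, was higher by 0.32 ± 0.07 (adjusted p = 0.01; 0.088 without shRNA 1 replicate 2, 0.05 without shRNA 2 replicate 2).

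Homologous recombination and Fanconi genes had 3 of 29 higher with shRNA 2 and 5 lower, with a median of 0.01. BARD1 was the largest of the lower ones. BRIP1, a helicase that BRCA1 binds, differed by 0.35 ± 0.07 (adjusted p = 0.0071; 0.065 without shRNA 1 replicate 2), but its dimmer probe set differed by -0.43 ± 0.13 and the mean of both was -0.04. Ribosome biogenesis genes had 6 of 38 higher and 1 lower (median 0.01), and 1 and 5 under median centring. NAT10 was the largest of the higher ones, and RRN3, an initiation factor of RNA polymerase I, was the lower one, at -0.48 ± 0.06 (adjusted p = 6.0e-04), with 1016 and 1008 with NTC, 1294 and 1268 with shRNA 1 and 918 and 912 with shRNA 2. Its shRNA 1 arrays were above the rest.

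In the ATF4 and unfolded protein response list 5 of 40 were higher with shRNA 2 and 9 lower, with a median of -0.03, and under each scaling and with probe sets averaged more were lower than higher. Beside CEBPG, SLC7A11, the cystine importer, read 137 and 135 with NTC, 547 and 506 with shRNA 1 and 335 and 400.4 with shRNA 2, a difference of -0.50 ± 0.09 (adjusted p = 0.0039), and its dimmer probe set gave -1.25 ± 0.10. CEBPB, a leucine zipper factor, was graded in the same way, by -0.45 ± 0.08 (adjusted p = 0.0028). CHAC1, which breaks down glutathione, was dim at 15.9 and 12.3 with NTC, 55.7 and 46.5 with shRNA 1 and 26.7 and 28.6 with shRNA 2 and differed by -0.62 ± 0.12 (adjusted p = 0.0049). All 3 rose with both hairpins and less with shRNA 2.

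Hypoxia and glycolysis genes had 12 of 37 higher with shRNA 2 and 2 lower, with a median of 0.10, and 8 and 3 under median centring. CA12 was one of these. SLC2A3, a glucose transporter, read 141 and 140.2 with NTC, 75.6 and 80.9 with shRNA 1 and 138 and 140.2 with shRNA 2, a difference of 0.72 ± 0.09 (adjusted p = 7.5e-04), low with shRNA 1 alone. ALDOC, an aldolase isoform, rose with both and farther with shRNA 2, at 164 and 159 with NTC, 267 and 252 with shRNA 1 and 351 and 381 with shRNA 2, by 0.47 ± 0.08 (adjusted p = 0.003). PFKL, a phosphofructokinase, was higher by 0.51 ± 0.11 (adjusted p = 0.01), lost without shRNA 1 replicate 2 (0.057) or shRNA 2 replicate 2 (0.062). These members thus came from different classes.

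Immediate early genes and feedback inhibitors of ERK signalling had 4 of 27 higher and 4 lower, with a median of -0.03, and 2 and 6 under median centring. SPRY4 was one of the lower ones. SPRED1, another inhibitor of the RAS to ERK route, was lower, at -0.61 ± 0.11 (adjusted p = 0.0041), with 74.2 and 63.4 with NTC, 105 and 124 with shRNA 1 and 65.2 and 72.8 with shRNA 2. FOSL2, an AP-1 subunit, was lower, at -0.59 ± 0.08 (adjusted p = 8.9e-04), and both were high with shRNA 1. JUNB, another AP-1 subunit, was higher with shRNA 2 by 0.45 ± 0.10 (adjusted p = 0.009; 0.058 without shRNA 1 replicate 1), at 82.3 and 72.9 with NTC, 71.7 and 77.2 with shRNA 1 and 111 and 105 with shRNA 2.

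Because double-stranded RNA can set off the interferon response, its genes were listed as well. Of 31 tested, 8 were higher with shRNA 2 and 2 lower, with a median of 0.15, and 7 to 11 were higher under each scaling and with probe sets averaged. The named members were of several kinds. CXCL11 was a graded fall on its brighter probe set. SAMD9, an antiviral factor, rose with both hairpins and farther with shRNA 2, at 24.8 and 22.9 with NTC, 47.7 and 43.2 with shRNA 1 and 82.1 and 76.8 with shRNA 2, by 0.64 ± 0.10 (adjusted p = 0.0026). IRF7, a master factor of interferon genes, read 139 and 139 with NTC, 73.7 and 74.3 with shRNA 1 and 101 and 137 with shRNA 2, by 0.57 ± 0.12 (adjusted p = 0.0082), and was low with shRNA 1. OAS1, a sensor of double-stranded RNA, differed by 0.57 ± 0.11 (adjusted p = 0.0055), with neither hairpin called against NTC. No shared direction from NTC was therefore seen among them. Of 10 NF-kB targets and cytokines, 2 were higher and 2 lower, and 0 and 2 under median centring.

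Fatty acid synthesis genes had 8 of 18 higher with shRNA 2 and 1 lower, with a median of 0.25, and more were higher than lower under each scaling and with probe sets averaged. ACSS2, which makes acetyl-CoA from acetate, read 171 and 165 with NTC, 122 and 103 with shRNA 1 and 191 and 161 with shRNA 2, a difference of 0.58 ± 0.11 (adjusted p = 0.0041), low with shRNA 1. ME1, malic enzyme, read 81.1 and 80.1 with NTC, 88.5 and 85.5 with shRNA 1 and 131 and 142 with shRNA 2 and differed by 0.56 ± 0.09 (adjusted p = 0.0027), high with shRNA 2 alone. FADS3, a desaturase relative, was higher by 0.58 ± 0.12 (adjusted p = 0.0069). The bright members ACACA and SCD did not share this lean. ACACA differed by -0.03 ± 0.07 (adjusted p = 0.78). SCD gave 0.07 ± 0.05 on its brightest probe set, which was not called (adjusted p = 0.40). A dimmer SCD probe set was called lower with shRNA 2, at -0.40 ± 0.06 (adjusted p = 0.0021). THRSP, a lipogenic regulator, lay below the array medians with NTC and shRNA 1, at 4.1 and 4.2 with NTC, 7.1 and 5.2 with shRNA 1 and 17.0 and 23.4 with shRNA 2, so the size of its difference of 0.70 ± 0.13 (adjusted p = 0.0037) depends on the added 16. It is counted among the 8, but it passed the filter only through the shRNA 2 arrays, where it was high. Its call is therefore not read as a result. Cholesterol synthesis had 1 of 18 higher and 2 lower, and 1 and 5 under median centring. LSS, lanosterol synthase, was the higher one, by 0.30 ± 0.06 (adjusted p = 0.0074). Respiratory chain subunits had 0 of 33 higher and 3 lower, with a median of -0.06, with 0 and 10 under median centring and 1 and 1 under quantile normalization.

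Matrix genes and integrins had 8 of 31 higher and 2 lower, with a median of 0.12. ITGA1, a collagen receptor subunit, fell with both hairpins and less with shRNA 2, at 79.3 and 89.7 with NTC, 31.4 and 23.4 with shRNA 1 and 57.5 and 58.9 with shRNA 2, by 0.78 ± 0.12 (adjusted p = 0.0018). COL5A2, a fibrillar collagen chain, was lower with shRNA 2, at -0.60 ± 0.11 (adjusted p = 0.0038), with 99.0 and 83.7 with NTC, 104 and 105 with shRNA 1 and 59.1 and 68.4 with shRNA 2. LUM, lumican, rose with both and less with shRNA 2, at 469 and 428 with NTC, 943 and 1020.0 with shRNA 1 and 667 and 742 with shRNA 2, by -0.47 ± 0.08 (adjusted p = 0.0025). Without probe sets marked as possibly shared LUM was -0.31 (adjusted p = 0.066).

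**Figure D5:**
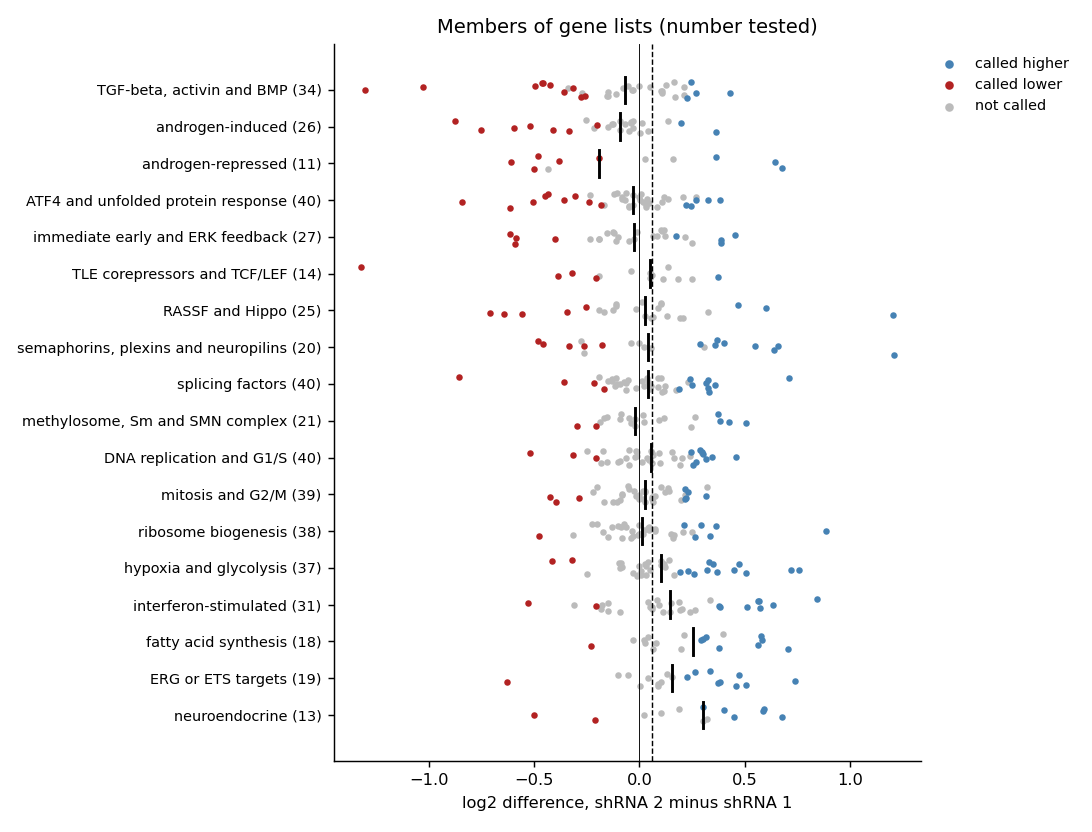
Log2 difference between shRNA 2 and shRNA 1 (horizontal axis) of the tested members of 18 gene lists, with the number tested in brackets; blue points were called higher with shRNA 2, red points lower, grey points were not called, and vertical placement within a row is arbitrary. Short black bars are list medians and the dashed line is the median of all genes (0.06), with TGF-beta and androgen-induced genes to its left and fatty acid, ERG or ETS and neuroendocrine genes to its right.

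Markers of cell types came last. Of 17 prostate luminal markers 15 were tested, 2 higher with shRNA 2 and 2 lower, and their summed intensity was 14205 to 15671 on the 6 arrays, so the labelled cell type had its markers on every array. ACP3, a secreted acid phosphatase, read 3245 and 3123 with NTC, 2046 and 2280.1 with shRNA 1 and 2808 and 2686 with shRNA 2, a graded fall with a difference of 0.34 ± 0.06 (adjusted p = 0.0034). HOXB13, a prostate lineage factor, was higher by 0.37 ± 0.08 (adjusted p = 0.0068), and AMACR was given above. Neuroendocrine markers had 6 of 13 higher and 2 lower, with a median of 0.30. The bright INSM1 fell with both hairpins and was not called between them (0.10 ± 0.06, adjusted p = 0.26). SYT4, also bright, was lower with shRNA 2, at -0.21 ± 0.06 (adjusted p = 0.021). SNAP25, a synaptic fusion protein, was low with shRNA 1, at 158 and 146 with NTC, 115 and 91.5 with shRNA 1 and 180.0 and 169 with shRNA 2, by 0.68 ± 0.11 (adjusted p = 0.0022). CHGB, a granin of secretory granules, was high with shRNA 2, at 237 and 261 with NTC, 252 and 209 with shRNA 1 and 357 and 347 with shRNA 2, by 0.59 ± 0.10 (adjusted p = 0.0025). CHGA, its relative, differed by 0.59 ± 0.14 (adjusted p = 0.013; 0.10 without shRNA 1 replicate 2 and 0.051 without shRNA 2 replicate 1), and DDC, a decarboxylase of amine synthesis, was lower, at -0.50 ± 0.10 (adjusted p = 0.0068). Summed over the tested markers the neuroendocrine intensity was 3372 to 3477 with shRNA 1, 3635 to 3726 with shRNA 2 and 3716 to 3759 with NTC, and its part in the other results was not tested.

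Markers of other cell types were mixed. None of 9 endothelial markers passed the filter, and their highest intensity was 18.5. Of 13 basal markers 5 were tested, with a summed intensity of 3665 to 3666 with NTC, 3373 to 3451 with shRNA 1 and 3676 to 3747 with shRNA 2, nearly all of it from ITGA6 and DST, which are also expressed outside basal cells. The 6 untested basal markers that have probe sets read 16.1 or less. The member called was KRT14, a basal keratin, higher by 0.57 ± 0.12 (adjusted p = 0.0081; 0.057 without shRNA 2 replicate 2). Of 15 fibroblast and smooth muscle markers 5 were tested, 2 higher and 1 lower, with the 10 untested ones at 20.8 or less. ACTA2, smooth muscle actin, fell with both hairpins, from 129 and 141 to 22.9 and 19.8 with shRNA 1 and 52.1 and 49.0 with shRNA 2, by 0.83 ± 0.10 between them (adjusted p = 7.6e-04). The summed intensity of the 5 was 678 to 709 with NTC, 1028 to 1100 with shRNA 1 and 808 to 887 with shRNA 2, most of it from LUM, and its part in the matrix genes above was not tested. Of 13 immune markers 2 were tested and moved apart: LYZ, lysozyme, was lower with shRNA 2, at -0.73 ± 0.11 (adjusted p = 0.0017) and FCER1G, an adaptor of immune receptors, higher by 0.55 ± 0.12 (adjusted p = 0.0078; 0.059 without shRNA 1 replicate 1, 0.051 without shRNA 2 replicate 2). Since each array reads a bulk culture, fewer cells with a transcript and less of it per cell cannot be told apart.

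Probe sets of a gene did not always move together, which bears on every difference given here. Taking the brightest probe set of each gene, 2277 were higher with shRNA 2 and 910 lower when all 23920 probe sets were tested at once. Among the 11507 other probe sets of the same genes, 1049 were higher and 1837 lower, with a median of -0.04. Of 3217 genes with several probe sets and at least 1 call, 197 (6.12%) had probe sets called in opposite directions, BRIP1 and NXPE3 among them. In other genes the probe sets differed without opposite calls. GEMIN8, of the SMN complex, differed by 0.43 ± 0.09 on its brightest probe set (adjusted p = 0.0071 at the gene level) and -0.22 ± 0.08 on another that was not called (adjusted p = 0.076), and its call was lost without shRNA 1 replicate 2 (adjusted p = 0.059) and with probe sets averaged (0.08, adjusted p = 0.42). PRKRA, an activator of PKR and partner of DICER1, gave 0.30 ± 0.08 and -0.05 ± 0.11 on its probe sets, and its call was lost without shRNA 1 replicate 1 (0.22, adjusted p = 0.14) or shRNA 2 replicate 2 (0.29, adjusted p = 0.059), under median centring (0.20, adjusted p = 0.091) and with probe sets averaged (0.12, adjusted p = 0.27). Whether these reflect transcript forms or the position of a probe set on the transcript was not tested.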

How the data were processed

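The data are 6 arrays of VCaP total RNA, 2 each with NTC shRNA, PRMT5 shRNA 1 and PRMT5 shRNA 2, grouped by the sample titles. The table deposited by the authors gives linear intensity for each of 54675 probe sets, and the submitters' processing notes name MAS5. The MAS5 version and any detection calls were not given in the sources used here. The mean after trimming 2% at each end was about 150 on every array, and the arrays were not scaled again. Of the value columns, 0 matched no sample.

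After 62 controls were set aside, 41091 probe sets had 1 gene symbol in the platform annotation, 1801 several and 11721 none, and 41037 matched a RefSeq gene of GRCh38.p14 with no symbol changed. A probe set was kept at or above its array's median in at least 2 of 6 arrays, and the brightest kept probe set stood for its gene. The deposited intensities were put on the log2(intensity + 16) scale here. limma 3.58.1 in R 4.3.3 fitted 1 coefficient per group, with eBayes and an intensity trend, two-sided, Benjamini-Hochberg adjusted over 12413 genes. The steps were tested on simulated data. With 2 arrays a group the number of arrays limits precision, and fold changes of dim genes are understated on this scale.

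Genes and lists were chosen with earlier results of these data known. The rule took PRMT5 and the 5 genes PLXNB2, RASSF5, TLE4, INHBA and CDKN1A. It added the 12 highest and 12 lowest called genes with a mean intensity of at least 100 in the brighter hairpin group and no overlap between hairpins, and the 4 largest by the same conditions in each class. From each list it took up to 4 called members and the 2 brightest. The text names a part of the genes this rule allowed, and those named without values, and ERG, were added after their values were seen. The alternatives were pseudocounts of 1 and 64, other filters, normalizations and summaries, the replicate number as a block, and each array left out. Cyclic loess normalization was added after seeing the data.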

Additional observations from a re-analysis of the deposited data

Results flagged for a closer look

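For 6 of the named genes the hairpins moved in opposite directions from NTC, and the difference between the hairpins was itself tested with limma's moderated test. The log2 differences were 1.21 for PLXNB2, 1.06 for ACOX2, 1.05 for GALNT10 and 0.97 for MCAM, each below NTC with shRNA 1 and above it with shRNA 2. They were -0.94 for NOTCH2NLA and -0.55 for BARD1, each above NTC with shRNA 1 and below it with shRNA 2. These values are from the brightest probe set of each gene. For PLXNB2, GALNT10, MCAM and BARD1 a dimmer probe set did not place the hairpins apart on either side of NTC. Over all genes tested, 33 were called in opposite directions.

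Probe sets without a single gene symbol stood outside the gene tests. Of 4724 such probe sets above the same filter, 1319 (27.9%) were called between the hairpins, 429 higher with shRNA 2 and 890 lower, with a median difference of -0.06. The split was 437 and 843 after quantile normalization, 412 and 880 after cyclic loess, and 252 and 1456 after median centring. More were lower than higher under each of these, as for the dimmer probe sets of named genes and unlike the brightest probe set of each gene as deposited.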

How the results depend on the processing

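The total of 3192 called genes ran from 1333 to 2808 when each array was left out in turn, with 952 to 2002 genes higher and 381 to 910 lower, and 15 to 23 at least 2-fold apart. Without shRNA 1 replicate 1 the counts were 1726 called, 1310 higher and 416 lower, without shRNA 1 replicate 2 they were 1333, 952 and 381, and without shRNA 2 replicate 2 they were 2017 and 1361 higher. Median centring gave 1173 higher and 1785 lower. The count of 18 genes at least 2-fold apart was 85 with a pseudocount of 1, 1 with a pseudocount of 64 and 9 with probe sets averaged, since the pseudocount and the averaging shrink or widen the same differences. With the replicate number as a block 2829 genes were called, 2017 higher and 812 lower, and each of the 111 genes followed here kept its call. Samples of one number did not deviate together (correlations of deviations -0.09, -0.18 and -0.00 over 2 pairs each), so the numbers give no pairing. Of 1958 values of these genes under the alternatives, 1898 kept direction and call, 55 kept the direction and lost the call, and 5 changed sign. Those were MYL12A (-0.071) and BRIP1 (-0.038) with probe sets averaged, and PLXNA1 (-0.26), GEMIN8 (-0.22) and PRKRA (-0.053) without probe sets marked as possibly shared. The probe set read differs by construction there. The genes followed were largely named for being called with large differences, which favours keeping the call. Of all 3192 called genes, 65.4% were also called under median centring, 74.1% with probe sets averaged and 90.2% after quantile normalization. Probe sets near the array median of 14.8 to 16.4 are close to background, so differences of dim genes rest on the pseudocount.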
